A study of Homo sapiens with 3 samples.

Results

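The 42 genes described here encode core proteins of the spliceosome, the RNA and protein machine that removes introns from pre-mRNA. They were chosen by name, with all single guide RNAs (sgRNAs) of a pooled CRISPR knockout library that carry 1 of the 42 gene symbols, and the rule itself uses no measured value. The 42 genes had 393 sgRNAs, between 6 and 10 per gene, and 25 of them had the full 10. The whole library, as far as it was seen in any of the 3 libraries, held 200682 sgRNAs, of which 189398 targeted 20381 genes.

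The spliceosome assembles anew on each intron from small nuclear ribonucleoproteins (snRNPs). U1 marks the start of the intron, U2 with the SF3 proteins holds the branch point, and the tri-snRNP of U4/U6 and U5 brings in the parts that form the active site. The Sm proteins make a ring on most of these RNAs, Prp19-related proteins join when the active site is built, and DEAH helicases remodel or take apart the particle. Because nearly every human mRNA is spliced, these genes are classed among the common essential genes of human cell lines, and the sgRNAs of such genes are usually lost from a pool of dividing cells.

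The experiment used K562, a human leukaemia line grown in culture, made to express the nuclease Cas9 and infected with the sgRNA library at a multiplicity of 0.3. Puromycin at 1 μg/mL was applied for 72 h from 48 h after infection, and interferon-γ was given for 24 h before each sort, with 1 ng/mL for the high screen and 25 ng/mL for the low screen. The HLA-B high sorted library (the sort) came from cells sorted for high surface HLA-B on days 18 and 25 of the high screen. The high-screen control and the low-screen control were mutagenised cells of each screen that were grown alongside and not sorted (high-screen pool and low-screen pool below), and the sorts of the low screen fell on days 7 and 15. The labels do not give the day on which either unsorted pool was harvested, and for the low-screen pool they leave the antibody of its screen unsettled (HLA-B or HLA-ABC). The screens differed in interferon-γ dose and sort schedule, and whether the unsorted pools were given interferon-γ or differed in age is not given, so these cannot be told apart here. All 3 libraries are sgRNA counts from genomic DNA, so neither the cell type nor the loss of a spliceosome protein could be checked in them, and the abundance of each sgRNA before infection was not analysed here.

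Matched reads came to 34266318 in the HLA-B high sort, 22562241 in the high-screen pool and 98426251 in the low-screen pool. Of all sgRNAs seen, 49.6% had reads in the sort, 97.7% in the high-screen pool and 93.4% in the low-screen pool. The median safe-targeting sgRNA, which cuts a site with no known function, had 1 read in the sort, 87 in the high-screen pool and 413 in the low-screen pool. Each group was 1 library, so no difference below has a replicate check and no p-value is given. The sgRNAs of 1 gene are separate cuts in 1 gene within the same pool of cells and are not replicates.

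Core spliceosome sgRNAs were scarce in both unsorted pools. The median member sgRNA had 53 reads in the high-screen pool, where the median sgRNA of all genes had 86, and 196 reads in the low-screen pool, where that of all genes had 386. For each gene the level was the median over its sgRNAs of log2 of (reads + 1) over (median safe-targeting reads + 1), so that 0 is the level of the median safe-targeting sgRNA and -1 is 2-fold below it. The level was at or below -1 for 17 of the 42 members in the high-screen pool, against 10.3% of the 19742 genes with at least 4 sgRNAs. In the low-screen pool it was at or below -1 for 22 members, against 11.1% of genes. The median level of the members was -0.72 in the high-screen pool and -1.11 in the low-screen pool, while that of all genes was -0.015 and -0.091 in these pools. Levels were below 0 for 37 members in the high-screen pool and for 41 in the low-screen pool, and AQR was the 1 member above 0 in the low-screen pool. A level below 0 was common over all genes too, since their median was itself below 0 in both pools. The share of all genes below 0 was not counted.

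**Figure D1:**
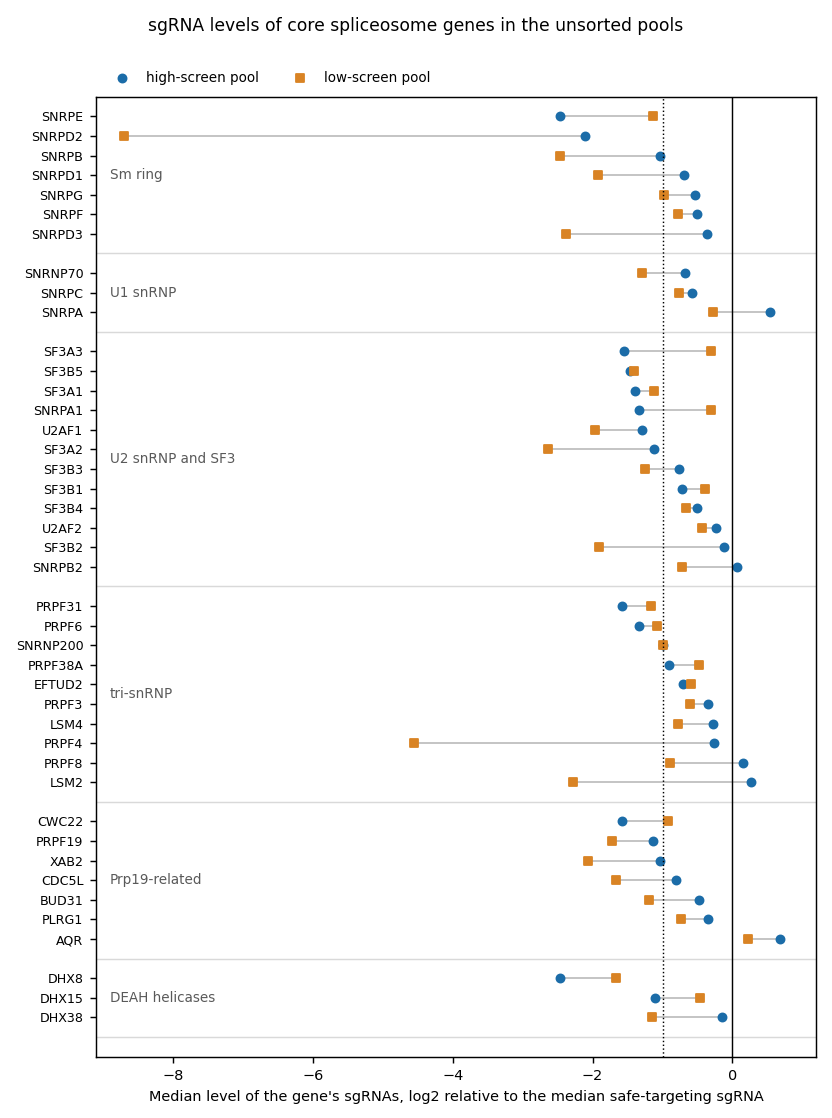
Level of each of the 42 core spliceosome genes in the high-screen pool (circles) and the low-screen pool (squares), as the median over its sgRNAs on a log2 scale relative to the median safe-targeting sgRNA (solid line at 0, dotted line at -1), grouped by role and with 1 library per pool. Most points lie left of 0, and the widest gaps between the pools are at SNRPD2 and PRPF4, whose levels are lower in the low-screen pool. In that pool the SNRPD2 median is 0 reads and the PRPF4 median falls between sgRNAs of 1 and 155 reads, so the widths of these gaps are not measured depths of loss.

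In 12 members the level was at or below -1 in both pools, which is 70.6% of the 17 called in the high-screen pool and 54.5% of the 22 called in the low-screen pool. These were SNRPB, SNRPD2 and SNRPE of the Sm ring, SF3A1, SF3A2, SF3B5 and U2AF1 of the U2 group, PRPF6 and PRPF31 of the tri-snRNP, PRPF19 and XAB2 of the Prp19-related group and the helicase DHX8. Over all genes, 4.70% were called in both pools. The other 5 of the 17 (SNRPA1, SF3A3, SNRNP200, CWC22 and DHX15) passed in the high-screen pool alone, and 15 members passed in neither. SNRNP200, the helicase that unwinds U4 from U6, lay on the threshold, with levels of -1 in the high-screen pool and -0.99 in the low-screen pool.

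The Sm ring had a median level of -0.69 over its 7 genes in the high-screen pool and of -1.92 in the low-screen pool, and in the low-screen pool no other of the 6 role groups had a lower median. SNRPE (chr1:203830727-203840280, GRCh37, as are all positions here) was the lowest member of all in the high-screen pool. Its 6 sgRNAs had 0 to 117 reads there with a median of 20.5, and 72 to 524 reads with a median of 192 in the low-screen pool. The levels were -2.47 in the high-screen pool and -1.14 in the low-screen pool, and only 1.14% of genes lay lower in the high-screen pool. SNRPD3 (chr22:24951926-24978020) was the highest of the ring in the high-screen pool, where its 10 sgRNAs had 6 to 151 reads (median 67.5) and a level of -0.37. In the low-screen pool 3 of these sgRNAs had no reads, the median was 79 and the level was -2.37, so SNRPD3 was near the safe-targeting sgRNAs in the high-screen pool and 5.19-fold below them in the low-screen pool.

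SNRPD2 (chr19:46190718-46195827), another ring protein, had the lowest level of any member in the low-screen pool. Its 10 sgRNAs had 70, 8, 103, 28, 21, 18, 55, 0, 17 and 4 reads in the high-screen pool and 0, 162, 309, 356, 0, 0, 27, 0, 0 and 0 reads in the low-screen pool. With 6 of 10 sgRNAs at 0 the median was 0 reads, and its level of -8.69 is what a count of 0 gives with 1 read added rather than a measured depth of loss. In the high-screen pool 1 of the 10 was at 0 and the level was -2.11. SNRPD1 and SNRPB had levels of -0.69 and -1.03 in the high-screen pool and of -1.92 and -2.46 in the low-screen pool. SNRPF and SNRPG stayed above -1 in both pools, at -0.51 and -0.53 in the high-screen pool and at -0.78 and -0.97 in the low-screen pool.

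Of the 3 U1 proteins none was called in the high-screen pool. SNRNP70 (chr19:49588676-49611862), which binds the first stem-loop of U1, had 13 to 145 reads there (median 54, level -0.68) and 0 to 604 reads in the low-screen pool (median 170.5, level -1.29). SNRPA (chr19:41256542-41271294), which binds another stem-loop of U1, had 46 to 238 reads (median 129) in the high-screen pool and 68 to 976 (median 348) in the low-screen pool. None of its 10 sgRNAs was at 0 in either pool, and its level was 0.54 in the high-screen pool, 1.46-fold above the safe-targeting median, and -0.29 in the low-screen pool. SNRPC, which sits at the start of the intron, had a level of -0.58 in the high-screen pool and of -0.76 in the low-screen pool.

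The U2 and SF3 group of 12 genes had median levels of -0.94 in the high-screen pool and -0.92 in the low-screen pool, with 6 genes called in each pool. SF3A3 (chr1:38422647-38455747), a subunit of the SF3A trimer, was lowest in the high-screen pool at -1.55 (0 to 101 reads, median 29) and stood at -0.30 in the low-screen pool (0 to 605 reads, median 335). SNRPA1, which binds U2 together with SNRPB2, showed the same order, with -1.33 in the high-screen pool and -0.30 in the low-screen pool. SF3A2 (chr19:2236823-2248654), another subunit of that trimer, and SF3B2 (chr11:65818200-65836779), the SF3B partner of SF3B4, were the other way round. SF3A2 had levels of -1.12 in the high-screen pool (median 39.5 reads) and -2.64 in the low-screen pool (median 66 reads), and SF3B2 had -0.12 in the high-screen pool (median 80.5 reads) and -1.91 in the low-screen pool (median 114 reads). SNRPB2 (chr20:16710606-16723209) was the highest of the group in the high-screen pool, at 0.064 with 8 to 384 reads, and had a level of -0.72 in the low-screen pool. SF3B1, the SF3B scaffold that is often mutated in myeloid neoplasms, had -0.73 in the high-screen pool and -0.39 in the low-screen pool and was called in neither. The SF3 subunits SF3A1 and SF3B5 were called in both pools, at -1.39 and -1.46 in the high-screen pool and at -1.13 and -1.41 in the low-screen pool. SF3B3 was called in the low-screen pool alone, with -0.77 in the high-screen pool and -1.25 in the low-screen pool, and SF3B4, which contacts the intron next to the branch point, had -0.51 and -0.66 in these pools. U2AF1, which reads the AG at the end of the intron, was called in both, at -1.29 in the high-screen pool and -1.97 in the low-screen pool. Its partner U2AF2, which binds the pyrimidine tract, stood at -0.23 in the high-screen pool and -0.44 in the low-screen pool.

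Among the 10 tri-snRNP genes 3 were called in the high-screen pool and 4 in the low-screen pool. PRPF31 (chr19:54618790-54635150), which binds U4, was lowest in the high-screen pool, with 1 to 73 reads (median 28.5) and a level of -1.58, and had 0 to 428 reads (median 205.5) and a level of -1.17 in the low-screen pool. LSM2 (chr6:31765173-31774743), a ring protein of U6, was highest in the high-screen pool at 0.27 (48 to 202 reads, median 105). In the low-screen pool 3 of its 7 sgRNAs had no reads, the median was 84 and the level was -2.28. PRPF4, a U4/U6 protein, had levels of -0.26 in the high-screen pool and -4.55 in the low-screen pool, where 4 of its 10 sgRNAs had no reads and 1 had a single read, and the middle pair, which sets the median, had 1 and 155 reads. PRPF8 (chr17:1553923-1588161), the scaffold around the active site, had levels of 0.15 in the high-screen pool (0 to 236 reads, median 96.5) and -0.89 in the low-screen pool (0 to 715 reads, median 226.5). EFTUD2 (chr17:42927316-42976813), the GTPase of U5, stood at -0.70 in the high-screen pool (1 to 329 reads, median 53) and -0.59 in the low-screen pool (0 to 792 reads, median 274). PRPF8 and EFTUD2 passed in neither pool, and neither did PRPF3, LSM4 of the U6 ring or PRPF38A, which acts when the spliceosome is activated. These 3 had levels of -0.35, -0.28 and -0.90 in the high-screen pool and of -0.61, -0.78 and -0.48 in the low-screen pool.

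In the Prp19-related group the ubiquitin ligase PRPF19 and the scaffold protein XAB2 were called in both pools, at -1.14 and -1.73 for PRPF19 and at -1.04 and -2.06 for XAB2 in the high-screen and low-screen pools. CWC22 (chr2:180809603-180872024), which links the spliceosome to the exon junction complex, was the lowest of the group in the high-screen pool at -1.58 (1 to 114 reads, median 28.5) and stood at -0.92 in the low-screen pool (0 to 1340 reads, median 222). AQR (chr15:35143983-35261943), an intron-binding helicase, was the highest member of all in both pools. It had 28 to 339 reads (median 140) and a level of 0.68 in the high-screen pool, and 0 to 880 reads (median 484) and a level of 0.23 in the low-screen pool. CDC5L, PLRG1 and BUD31, further partners of PRPF19 or of the active site, had levels of -0.80, -0.35 and -0.48 in the high-screen pool and of -1.67, -0.74 and -1.19 in the low-screen pool.

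Of the 3 DEAH helicases, DHX8 (chr17:41561233-41687706), which releases the spliced mRNA, was low in both pools. Its 7 sgRNAs had 13 to 148 reads (median 15) and a level of -2.46 in the high-screen pool, and 0 to 586 reads (median 130) and a level of -1.66 in the low-screen pool. DHX38 (chr16:72127512-72146811), which acts between the catalytic steps, was the highest of them in the high-screen pool, with levels of -0.15 there (median 79.5 reads) and -1.15 in the low-screen pool (median 210.5 reads). DHX15, which takes the spent spliceosome apart, had levels of -1.11 in the high-screen pool and -0.47 in the low-screen pool.

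sgRNAs with no reads at all were more frequent among the members than among all genes. In the high-screen pool 24 of the 393 member sgRNAs, or 6.11%, had 0 reads (95% Clopper-Pearson interval 3.95 to 8.95), against 2.28% over all genes. In the low-screen pool 84, or 21.4%, had 0 reads (17.4 to 25.8), against 6.60% over all genes, although that pool had the most reads. Intervals here and below are binomial over sgRNAs and treat each sgRNA as an independent draw. The sgRNAs of the same gene share a target and a pool of cells, so the intervals may be too narrow and are a description. They cover neither variation between libraries nor PCR amplification, as reads without molecular identifiers are not independent molecules. More sgRNAs were at 0 in the low-screen pool than in the high-screen pool for 30 members, fewer for 4 (SNRPA1, SNRPE, CDC5L and PLRG1), and as many for 8. Over all genes with at least 4 sgRNAs, 38.4% had more at 0 in the low-screen pool and 10.1% had fewer.

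The sgRNAs missing from 1 pool were mostly present in the other, for the members as for all genes. Of the 84 member sgRNAs at 0 in the low-screen pool, 67 or 79.8% had at least 10 reads in the high-screen pool, against 77.0% over all genes. Of the 24 at 0 in the high-screen pool, 22 or 91.7% had at least 10 reads in the low-screen pool, against 84.5% over all genes. At 0 in both pools were 2 of the 393 member sgRNAs, both in the Sm ring, and 317 of the 189398 gene-targeting sgRNAs. In the sort the 2 had 120 reads (SNRPD1 sgRNA 2) and 1 read (SNRPD2 sgRNA 8). Between 1 and 24 reads lay 76 member sgRNAs in the high-screen pool, or 19.3% against 14.4% over all genes, and 4 in the low-screen pool, or 1.02% against 1.57%. Across the 393 member sgRNAs, log2 reads in the high-screen and low-screen pools had a Pearson correlation of 0.18, against 0.45 over all gene-targeting sgRNAs and 0.40 over the safe-targeting sgRNAs. These points share their library and its depth, so the correlations are a description.

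**Figure D2:**
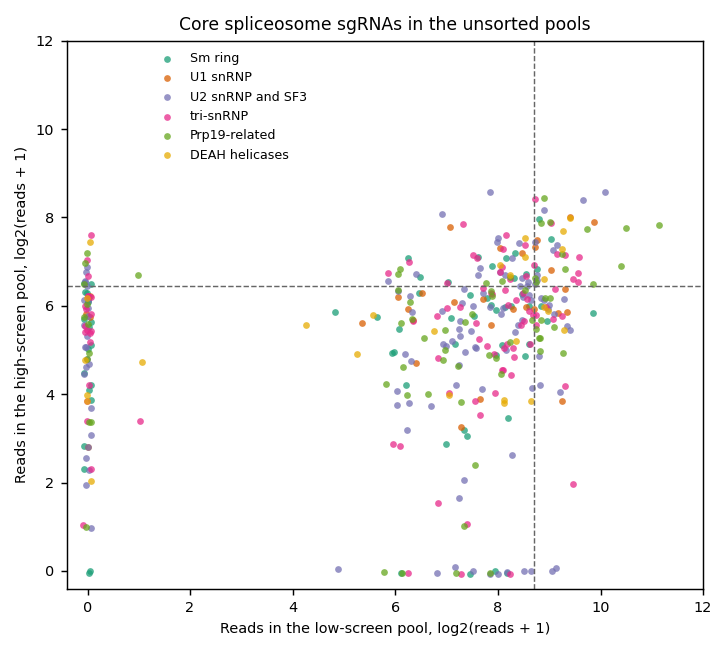
Reads of each of the 393 core spliceosome sgRNAs in the high-screen pool (vertical axis) against the low-screen pool (horizontal axis), both as log2(reads + 1), coloured by role and with a small fixed jitter, with dashed lines at the median safe-targeting sgRNA. The column of points at the left holds the 84 sgRNAs with no reads in the low-screen pool, most of which had reads in the high-screen pool, and the row at the bottom holds the 24 with none in the high-screen pool.

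The high-screen pool was then set against the low-screen pool gene by gene, as the median over sgRNAs of the log2 ratio of (reads + 1) scaled to matched reads, with the median of the safe-targeting sgRNAs subtracted. Of the 42 members 9 were higher in the high-screen pool by at least 1 on this scale, where 6.15% of the 19863 genes tested were, and 1 was lower by at least 1, where 2.57% were. The 9 were SNRPB, SNRPD1, SNRPD2, SNRPD3, SF3A2, SF3B2, PRPF8, LSM2 and AQR, of which 4 belong to the Sm ring, and the 1 that was lower was SNRPE. SNRPD2 had the highest ratio of all members at 4.85 over 8 sgRNAs, and SF3A2 followed at 3.09 over 10 sgRNAs. An sgRNA with 0 reads in the low-screen pool has a ratio set by the 1 read added and its count in the high-screen pool. The SNRPD2 median lies between ratios of 3.27 and 6.44, the latter from such an sgRNA, so its size is not a measured one. The middle pair of SF3A2 ratios, 2.87 and 3.30, came from sgRNAs with reads in both pools. SNRPE had the lowest ratio at -1.54 over 6 sgRNAs, and PRPF31 followed at -0.97 over 7. The median ratio was 0.35 over the members and 0.13 over all genes.

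RSA, which asks whether the sgRNAs of a gene gather at 1 end of the ranking of all sgRNAs, was used to call genes at an RSA probability under 0.001 where 4 or more sgRNAs lay at the best rank or past it. Placing the minimum number of sgRNAs at the best rank was a choice made here. It called SF3A2 and SNRPD2 as enriched in the high-screen pool over the low-screen pool, at ranks 12 and 25 of the genes, where 0.866% of genes were called. It called no member as depleted, where 0.789% of genes were called. SNRPD2 was no longer called with a minimum of 30 reads. Both genes had sgRNAs that were absent from the low-screen pool. The 4 SF3A2 sgRNAs with 0 reads there had 23, 120, 39 and 44 reads in the high-screen pool, and of the 6 such SNRPD2 sgRNAs 5 had between 4 and 70 reads. SF3A2 also held 2 sgRNAs of the opposite kind, with 0 reads in the high-screen pool and 344 and 227 in the low-screen pool.

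In the HLA-B high sort most member sgRNAs were absent. Of the 393, 271 or 69.0% had no reads there (64.1 to 73.5), against 50.8% over all gene-targeting sgRNAs and 49.6% of the safe-targeting ones. By role the share at 0 ran between 65.5% in the U2 and SF3 group and 73.3% in the U1 group, with intervals that overlapped throughout. Since the median safe-targeting sgRNA had 1 read in this library, a level of -1 meant that the median sgRNA of the gene had none, which was the case for 36 of the 42 members and for 42.5% of genes.

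**Figure D3:**
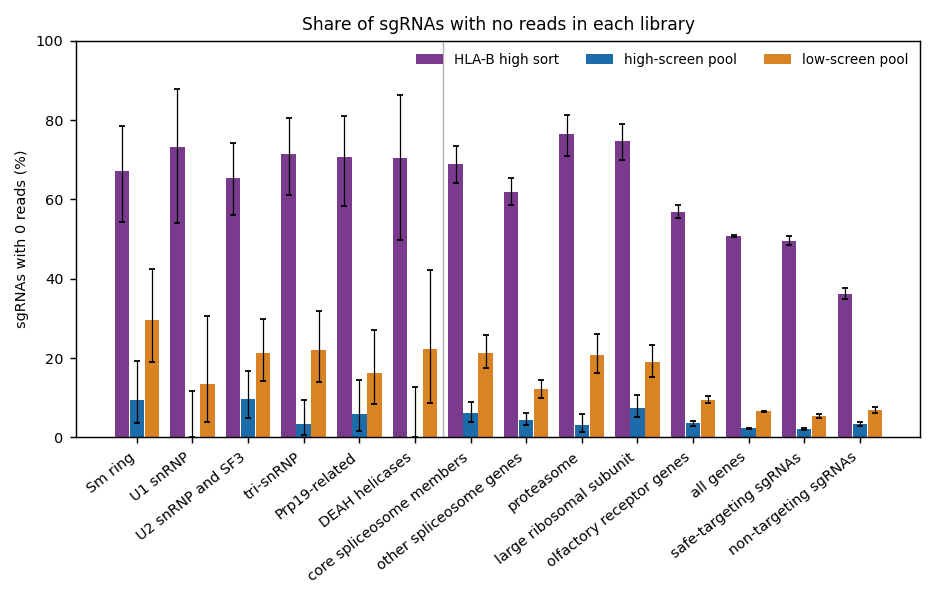
Share of sgRNAs with 0 reads in the HLA-B high sort, the high-screen pool and the low-screen pool, for the 6 role groups, all 393 core spliceosome sgRNAs, 4 other gene lists, all genes and both kinds of control sgRNA, with 95% Clopper-Pearson intervals as error bars. The members stood at 69.0% in the sort, 6.11% in the high-screen pool and 21.4% in the low-screen pool, where all genes stood at 50.8%, 2.28% and 6.60%.

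Scarce sgRNAs were more often absent from the sort, so the shares were also taken within classes of abundance in the pool, a comparison added after the values had been seen. Of the 56 member sgRNAs that had 120 or more reads in the high-screen pool, 31 or 55.4% had no reads in the sort (41.5 to 68.7), against 32.5% of all gene-targeting sgRNAs and 32.8% of safe-targeting sgRNAs in that class. The class has no upper bound, and its median was 173 reads for the members and 185 over all genes. In narrower classes the shares were 60% of 30 member sgRNAs (40.6 to 77.3) against 40.2% over all genes at 120 to under 180 reads, and 50% of 26 (29.9 to 70.1) against 27.2% at 180 to under 400 reads. At 60 to under 120 reads the shares were 70.1% of 117 member sgRNAs (60.9 to 78.2) and 51.1% over all genes, with class medians of 79 and 87 reads. Below 60 reads the shares were closer together, at 68.4% against 62.3% for 30 to under 60 reads, 76.1% against 71.0% for 10 to under 30 reads and 72.7% against 77.4% for under 10 reads. With classes set by the low-screen pool, 60% of the 30 member sgRNAs with at least 600 reads were absent from the sort (40.6 to 77.3), against 34.8% over all genes, with class medians of 683 and 863 reads. At 150 to under 300 reads the shares were 80% of 95 member sgRNAs (70.5 to 87.5) against 59% over all genes. The other classes of that pool had intervals that held the value of all genes, with 59.4% of 101 member sgRNAs (49.2 to 69.1) against 50.4% at 300 to under 600 reads, 67.5% against 65.1% at 1 to under 150 reads and 72.6% against 70.1% at 0 reads.

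**Figure D4:**
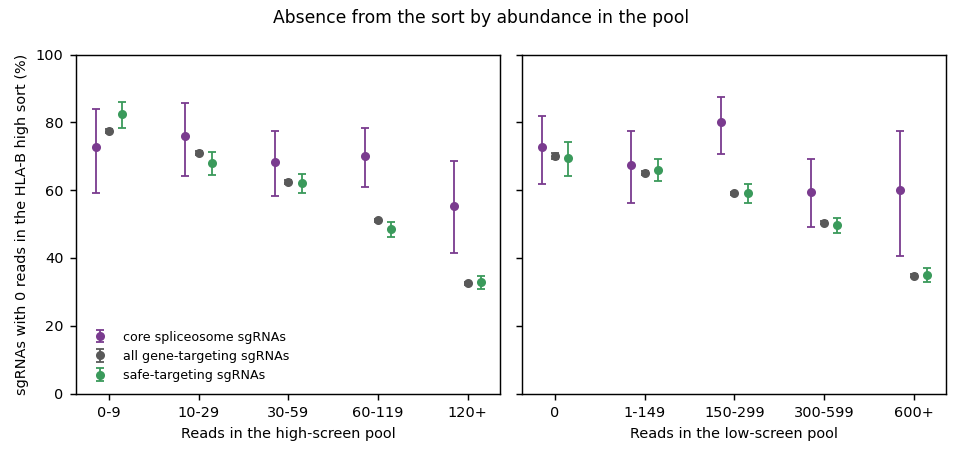
Share of sgRNAs with 0 reads in the HLA-B high sort by their reads in the high-screen pool (left) and in the low-screen pool (right), for core spliceosome, all gene-targeting and safe-targeting sgRNAs, with 95% Clopper-Pearson intervals. The members lie above the others at 55.4% against 32.5% for at least 120 reads in the high-screen pool, a class without an upper bound, and the intervals of the members hold the value of all genes in the classes under 60 reads in that pool.

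The gene ratio of the sort to the high-screen pool was at or below -1 for 26 of the 42 members, where 29.8% of 19802 genes were, and at or above 1 for 3, where 35.6% of genes were. Against the low-screen pool it was at or below -1 for 24 members, where 30.6% of 19754 genes were, and at or above 1 for 6, where 34.9% of genes were. With 5 reads added in place of 1, the members at or below -1 were 11 against the high-screen pool and 7 against the low-screen pool, where 18.6% and 15.2% of genes were. Both comparisons use the same sort. PRPF8 and SNRPA were the lowest against the high-screen pool, at -2.57 and -2.43, and stood at -1.74 and -1.16 against the low-screen pool. EFTUD2 and SF3A3 were the lowest against the low-screen pool, at -2.11 and -2.07, and stood at -1.72 and -0.77 against the high-screen pool. An sgRNA with no reads in the sort has a ratio set by its count in the pool, so among members mostly at 0 this order follows pool abundance. RSA called none of the 41 members tested against the high-screen pool, where SNRPE had too few sgRNAs, and none of 42 against the low-screen pool. Other settings, given below, called a few. The depleted end of the ranking also follows pool abundance, so the lack of depleted calls does not show that no member was lost. EFTUD2, with 0 reads in the sort, ranked 771 as depleted against the high-screen pool, and SNRPB2, with a ratio of 2.10, ranked 69. The shares of genes called by RSA were 0.425% depleted and 0.547% enriched against the high-screen pool, and 0.574% depleted and 0.656% enriched against the low-screen pool.

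The members above 1 were CWC22, SNRPB2 and SNRPD3 against the high-screen pool, and DHX8, LSM4, SF3B2, SNRPB2, SNRPC and SNRPD3 against the low-screen pool. SNRPD3 was the highest in both, at 3.55 against the high-screen pool and 5.54 against the low-screen pool, with reads in the sort for 5 of its 10 sgRNAs. Those 5 had 77, 32, 533, 56 and 226 reads in the sort and 89, 47, 102, 29 and 60 reads in the high-screen pool, and the other 5 were at 0 in the sort with 6 to 151 reads in the high-screen pool. Summed over its sgRNAs, SNRPD3 had 27.0 CPM (counts scaled to 1000000 matched reads) in the sort, 30.1 in the high-screen pool and 13.7 in the low-screen pool, so it was not above the high-screen pool by that measure. SNRPB2 had ratios of 2.10 against the high-screen pool and 1.86 against the low-screen pool, and its 2 most abundant sgRNAs went the other way. sgRNAs 1 and 4 of SNRPB2 had no reads in the sort, against 347 and 384 reads in the high-screen pool and 761 and 1053 in the low-screen pool. SF3B2 had a ratio of 3.34 against the low-screen pool and of -0.30 against the high-screen pool.

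Counts were also summed over the sgRNAs of each gene. The summed CPM was lower in the sort than in the high-screen pool for 36 members, or 85.7% against 66.2% of genes with at least 4 sgRNAs, and lower than in the low-screen pool for 32, or 76.2% against 65.8%. The members held 0.196% of all sgRNAs and 0.0663% of matched reads in the sort, 0.117% in the high-screen pool and 0.0976% in the low-screen pool. The mean per member sgRNA was 1.69 CPM in the sort and 2.99 CPM in the high-screen pool, while over all gene-targeting sgRNAs it was 4.89 and 4.91 CPM in these libraries.

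A few members were close to absent from the sort. EFTUD2 had 0 reads over all 9 sgRNAs in the sort, against 29.96 CPM in the high-screen pool and 32.3 CPM in the low-screen pool, which is at least 342-fold and at least 369-fold lower with a floor of 3 reads per library. These folds are not scaled to the safe-targeting sgRNAs, whose median was 87 reads in the high-screen pool and 1 in the sort. With the safe-targeting median subtracted, the gene ratio of EFTUD2 was -1.72 against the high-screen pool and -2.11 against the low-screen pool. PRPF6, which bridges the parts of the tri-snRNP, and PRPF8 had 1 read each, BUD31 had 2, PRPF31 had 3 and SNRNP70 had 5. PRPF8 stood at 40.6 CPM in the high-screen pool and 29.1 CPM in the low-screen pool, and its sgRNAs 8 and 9 had no reads in the sort against 236 and 171 in the high-screen pool. These 6 of the 42 members had 5 or fewer reads in the sort, a bound set after the values were seen, where 1.62% of genes did. Of the 6, 4 are tri-snRNP proteins.

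**Figure D5:**
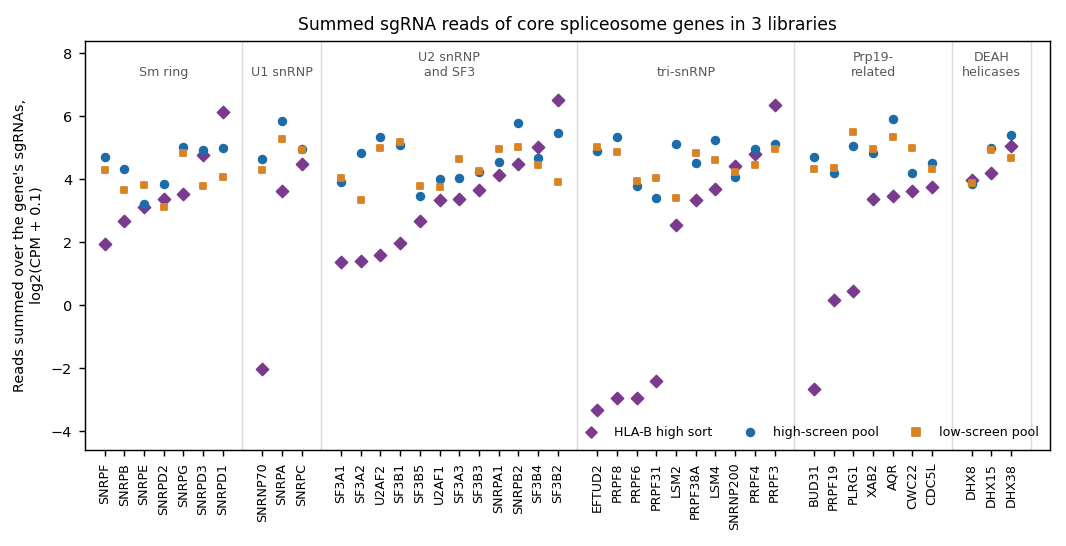
Reads summed over the sgRNAs of each core spliceosome gene, as log2(CPM + 0.1), in the HLA-B high sort (diamonds), the high-screen pool (circles) and the low-screen pool (squares), ordered within each role by the sort. The unsorted pools lie close together for most genes, whereas the sort ranges between 0 CPM for EFTUD2 and 91.4 CPM for SF3B2.

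Where member reads remained in the sort, they came mostly from 1 sgRNA of a gene, as they did for most genes. The top sgRNA held a median of 83.7% of a member's reads in the sort, 26.9% in the high-screen pool and 27.6% in the low-screen pool, where the medians over all genes were 60.1%, 25.8% and 25.2%. For 36 members, or 85.7%, it held over 50% in the sort, against 68.6% of genes. Summed CPM was higher in the sort than in both pools for 6 members, or 14.3% against 29.3% of genes, namely SNRPD1, SF3B2, SF3B4, PRPF3, SNRNP200 and DHX8. For PRPF3, a U4/U6 protein, this came from sgRNA 5, with 2644 reads in the sort against 116 in the high-screen pool and 258 in the low-screen pool, or 15.0-fold and 29.4-fold the CPM of these pools, while 5 of its 10 sgRNAs had no reads in the sort. For SF3B2 it came from sgRNA 5, with 2600 reads in the sort against 384 and 229 reads in the high-screen and low-screen pools. For SF3B4 it came from sgRNA 4, with 1092 reads in the sort against 78 in the high-screen pool and 66 in the low-screen pool. SNRPD1 had 2 such sgRNAs, number 5 with 1552 reads in the sort against 249 in the high-screen pool and 470 in the low-screen pool, and number 6 with 634 reads in the sort against 29 in the high-screen pool and 57 in the low-screen pool. SNRNP200 sgRNA 8 had 17.5 CPM in the sort against 1.91 CPM in the high-screen pool and no reads in the low-screen pool, and DHX8 sgRNA 10 had 351 reads in the sort against 15 in the high-screen pool and 130 in the low-screen pool. In each of these genes at least 5 sgRNAs had no reads in the sort, so the summed values rested on 1 or 2 sgRNAs.

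sgRNAs with at least 2-fold the CPM in the sort made up 7.4% of the 338 member sgRNAs that had 10 or more reads in the high-screen pool (4.84 to 10.7), against 12.5% over all genes and 11.7% of the safe-targeting sgRNAs. Against the low-screen pool the share was 9.15% of 306 member sgRNAs (6.17 to 13.0), with 13.3% over all genes.

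Another 89 spliceosome genes, listed with earlier results known, were measured in the same way. Of the 86 with at least 4 sgRNAs, 33 were at or below -1 in the high-screen pool and 28 in the low-screen pool, against 10.3% and 11.1% of all genes. Their median levels were -0.70 in the high-screen pool and -0.73 in the low-screen pool. In the sort 62.0% of their 828 sgRNAs had no reads. PRPF38B and LUC7L3 were the lowest in the high-screen pool, with levels of -3.71 and -2.76 there and of -2.69 and -1.50 in the low-screen pool. PRPF39 and DDX46 were the highest in the high-screen pool, at 0.28 for PRPF39 and 0.25 for DDX46, and stood at 0.074 and -1.10 in the low-screen pool. RSA called SF1, the first reader of the branch point, and LSM7, of the U6 ring, as enriched in the high-screen pool over the low-screen pool. None of the 9 SF1 sgRNAs was at 0 in the high-screen pool and 4 were in the low-screen pool, and of the 8 LSM7 sgRNAs none was at 0 in the high-screen pool and 3 were in the low-screen pool.

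Lists for other complexes and for olfactory receptors were measured alongside. Proteasome genes were at or below -1 for 17 of 29 in the high-screen pool and 19 in the low-screen pool, and large ribosomal subunit genes for 20 of 43 in the high-screen pool and 30 in the low-screen pool. Over all genes the shares were 10.3% in the high-screen pool and 11.1% in the low-screen pool. In the sort 76.4% of proteasome sgRNAs and 74.6% of large ribosomal subunit sgRNAs had no reads. Among 388 olfactory receptor genes, which blood cells are not known to need, 97 were at or below -1 in the high-screen pool and 96 in the low-screen pool, with median levels of -0.37 in the high-screen pool and -0.44 in the low-screen pool. Those counts are 25% and 24.7% of the olfactory receptor genes, above the shares of all genes. Olfactory receptor sgRNAs were at 0 in the sort in 56.9% of cases. Their medians were thus also below the safe-targeting sgRNAs, and with olfactory receptor sgRNAs as the zero point 8 members in the high-screen pool and 14 in the low-screen pool were at or below -1, against 5.18% and 6.01% of genes.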

How the data were processed

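The deposited files hold counts of sequencing reads per sgRNA, 1 file per library. Per the paper's methods the authors trimmed the constant part of the sgRNA reads with the FASTX clipper or cutadapt. They then aligned reads to the sgRNA library with Bowtie2 and discarded reads with several matches. The submitters' processing notes also name bcl2fastq, and versions are not given in the sources used here. An sgRNA that a file did not list was taken as 0 reads. Reads matched to no sgRNA (21.9% in the HLA-B high sort, 20.6% in the high-screen pool and 12.1% in the low-screen pool) were left out.

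Levels and ratios were computed with Python 3.11.15, numpy 2.4.6, pandas 2.3.3 and scipy 1.17.1 after adding 1 read. Levels needed 4 sgRNAs per gene. Ratios used sgRNAs with at least 10 reads in the control (in either pool, for high against low) and needed 3 sgRNAs. RSA ranked all sgRNAs, with ties at the worst rank. It was checked on simulated counts of the high-screen against the low-screen pool only, not on counts with as many zeros as the sort. Gene positions came from GENCODE 44 lifted to GRCh37.

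The 42 genes, the role groups and the comparison lists were chosen with earlier results of these data known. Values in full were given for the lowest and highest gene of each role by level in the high-screen pool, the 2 lowest and 2 highest in each comparison and all genes called by RSA; other genes were named after their values were seen. LSM8, LUC7L2 and PSMA2 were not found under those symbols. Alternatives changed the added reads, the minimum count, the control sgRNAs, the summary over sgRNAs and the depth. Sequences and cut sites of the sgRNAs were not used here.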

Additional observations from a re-analysis of the deposited data

How the results depend on the processing

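No paired analysis was possible because each group held 1 library, and no library could be left out. The sort had more matched reads than the high-screen pool, but the median safe-targeting sgRNA had 1 read there against 87, which limits what a gene median can show in the sort. With non-targeting sgRNAs as the zero point, 35 members in the high-screen pool and 37 in the low-screen pool were at or below -1 (40% and 31.4% of genes), and with olfactory receptor sgRNAs 8 and 14 were (5.18% and 6.01% of genes). The mean over sgRNAs in place of the median gave 37 in the low-screen pool (34.2% of genes). Thinning the low-screen pool to the depth of the high-screen pool gave 23 (11.2% of genes), against 22 (11.1% of genes).

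In the sort, the number of members with a level at or below -1 was 0 with 5 reads added and 0 with olfactory receptor sgRNAs as the zero point. It was 1 with the mean over sgRNAs, against 36 as reported. The shares of all genes fell likewise, to 0%, 0% and 0.674% in that order, against 42.5%. Those settings move the level of a count of 0 or let single sgRNAs lead. Against the high-screen pool, 11 members were lower with 5 reads added, 17 without the lowest sgRNA of each gene and 42 without centring (18.6%, 19.7% and 91% of genes), against 26. Against the low-screen pool, 7 were lower with 5 reads added and 41 without centring (15.2% and 91.6% of genes), against 24. Of the high-screen against the low-screen pool, 0 members were lower with summed counts and 2 without centring (0.74% and 4.13% of genes), against 1 (2.57% of genes). Members with ratios at or above 1 were not recounted under the alternatives in any comparison, so the stability of those counts was not tested. RSA made 6 calls of members with no minimum count, SNRPD2 being called in a pair of comparisons, 1 (SF3A2) with a minimum of 30 reads and 6 with any number of sgRNAs at the best rank, against 2. With no minimum count, SNRPD1 and SNRPD2 were called as enriched in the sort over the low-screen pool. With any number of sgRNAs, SNRPB2 was called as depleted in the sort against the high-screen pool. The other calls under these settings were as enriched in the high-screen pool over the low-screen pool. SF3A2 and SNRPD2 were among the 6 in both cases.

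The levels in the pools and the ratios of single members were compared by their side of the threshold of -1. Of the alternative values 1027 stayed on their side, 102 no longer passed it and 106 newly passed it. A further 24 called values, ratios at or above 1 included, changed sign. A ratio at or above 1 that fell below 1 without changing sign was counted among the 1027. Those 24 were all in the comparisons with the sort. Against the high-screen pool, summed counts gave 0.13 for SNRPE, -1.16 for SNRPB2, 0.55 for SF3B4, 1.44 for PRPF3 and -0.37 for CWC22, no centring gave -1.14 for SNRPD3, -2.59 for SNRPB2 and -2.70 for CWC22, and no minimum count gave 2.25 for SNRPE and 1.33 for SF3B3. Against the low-screen pool, summed counts gave -0.074 for SNRPC, -0.32 for SNRPB2, 0.91 for SF3B4, 0.64 for PRPF4 and -0.55 for LSM4. No centring gave -2.34 for SNRPC, -2.94 for SNRPB2, -1.46 for SF3B2, -2.88 for LSM4 and -2.73 for DHX8. No minimum count gave 6.08 for PRPF4, 4.02 for PRPF38A and 2.47 for AQR, and AQR stood at 0.67 without the lowest sgRNA of each gene. The cause was not tested, except that the lack of centring leaves in the fall of the safe-targeting sgRNAs themselves.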
